A study of Mus musculus with 5 samples.

Results

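A group of 8 genes on mouse chromosome 15 was followed in differentiated primary myoblasts: Lynx1, Ly6e, Ly6a, Ly6c1, Ly6k, Ly6h and Gpihbp1 of the Ly6 locus, and Gpr20 near it. They are 8 of the 55 protein-coding genes listed between 73 and 76 Mb of chromosome 15 (GRCm38), and of 54232 genes in all. The group was chosen by name, around Lynx1 and Gpr20, which were selected because their normalized counts were lower in the mutant samples. The difference between genotypes in these 8 genes is therefore given as a description without p-values, and tests are given for the other genes around them. Lynx1 and Gpr20 enter some counts of passing genes below, and nothing is read from their part in those counts.

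Myoblasts are precursors of muscle that stop dividing when serum is lowered and then fuse with each other to form myotubes. RNA was sequenced from WT cells (n = 3) and from cells homozygous for Elmo2 EID (n = 2), a knock-in mutation that favours the open conformation of ELMO2, a scaffold protein of the ELMO/DOCK complex that activates Rac during fusion. Cells came from leg muscles of mice aged 6 to 8 weeks, on a mixed C57BL6 and 129SV background, were isolated with magnetic beads for satellite cells and integrin alpha-7, and were differentiated in 2% horse serum for 72 h. The mutant protein is made in the whole animal and not in muscle alone, and the sources used here do not say whether WT and mutant mice were littermates. The study's methods say that primary cells usually came from independent mice. They add that in vitro work used different biological samples and was spread over different times. Neither these statements nor the labels tie these 5 samples to separate mice. Thus p-values measure the spread between these samples, which may in part be technical.

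The deposited values are read counts divided by a size factor for each sample, called normalized counts below. Recovered library totals ran from 35021856 to 49381544 reads, and 3 reads, taken as the floor, correspond to 2.65 to 3.73 normalized counts. Elmo2 itself, on chromosome 2, had 1642, 1539 and 1660 normalized counts in WT and 1441 and 1327 in Elmo2 EID/EID samples, and as a knock-in its RNA level does not check the labels. Muscle genes defined the cultures in every sample, with Myog between 47286 and 53544 normalized counts. A difference below is Elmo2 EID/EID minus WT in log2(normalized count + 1), given with its standard error (SE) from limma. The added 1 makes differences of low genes look smaller than they are. Genes were tested when they reached 5 normalized counts in at least 1 sample, and an adjusted p under 0.05 (limma with Benjamini-Hochberg adjustment over 18156 genes) counted as passing. Over all tested genes the median difference was 0.01, and 2.23% passed, 1.14% lower and 1.09% higher in Elmo2 EID/EID myoblasts. Counts at an unadjusted p under 0.05 (limma) appear below without the share of all genes, so they cannot be called high or low.

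The Ly6/uPAR family encodes small extracellular proteins, most of them held on the cell surface by a lipid anchor, whose shared domain is a fold of finger-like loops pinned at the base by cysteine pairs. Snake alpha-toxins have the same fold, and several family members bind nicotinic acetylcholine receptors, as the toxins do. In the mouse much of the family sits in one cluster on chromosome 15, where recent duplications have produced near-identical copies. Gpr20 is no family member. It encodes an orphan receptor of the G protein-coupled class.

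The domain is shown for the 4 family genes of the locus on which the results turn, because it shows how far apart these neighbours are in sequence while keeping the cysteines. Each line runs in the coding direction from the first to the last cysteine codon of the domain, with cysteine codons in capitals, and was read from the GENCODE M21 transcript on GRCm38, that is, from the reference and not from the samples. Every line holds 10 cysteine codons, over 69 codons in Lynx1, 70 in Psca and 76 in both Ly6e and Ly6a.
Lynx1: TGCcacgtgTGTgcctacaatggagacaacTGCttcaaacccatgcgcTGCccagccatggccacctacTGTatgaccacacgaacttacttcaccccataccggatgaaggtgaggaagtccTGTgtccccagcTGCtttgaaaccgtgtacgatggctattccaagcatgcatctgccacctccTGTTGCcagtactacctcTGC
Psca: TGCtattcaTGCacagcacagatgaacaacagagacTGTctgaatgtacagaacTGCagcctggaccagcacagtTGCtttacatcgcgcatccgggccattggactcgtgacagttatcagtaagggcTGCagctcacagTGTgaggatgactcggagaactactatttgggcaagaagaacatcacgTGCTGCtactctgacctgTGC
Ly6e: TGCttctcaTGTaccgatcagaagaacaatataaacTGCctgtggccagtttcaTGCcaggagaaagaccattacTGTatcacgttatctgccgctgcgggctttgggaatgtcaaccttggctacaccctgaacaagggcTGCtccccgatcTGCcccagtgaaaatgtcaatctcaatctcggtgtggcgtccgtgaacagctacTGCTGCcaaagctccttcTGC
Ly6a: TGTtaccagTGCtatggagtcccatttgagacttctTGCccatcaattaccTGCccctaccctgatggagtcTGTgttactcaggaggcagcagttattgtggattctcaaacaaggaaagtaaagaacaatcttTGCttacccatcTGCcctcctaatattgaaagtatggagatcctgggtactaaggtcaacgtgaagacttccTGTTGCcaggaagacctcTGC
The last pair of adjacent cysteine codons, near the end of each line, is present in all 4 genes. No stretch of 50 bases in the principal transcripts of Lynx1, Psca or Ly6e occurred in an annotated transcript of another gene, 50 bases being the length of each read. In Ly6a, 62 of 770 such stretches (8.05%) were shared with another gene.

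Lynx1, which encodes a membrane-anchored modulator that dampens nicotinic receptor responses, was the highest of the 8 genes in WT myoblasts and much lower in the mutant. It lies on the minus strand at chr15:74747852-74753046. It had 1805, 2365 and 2203 normalized counts in WT samples and 212 and 178 in Elmo2 EID/EID samples. Both mutant samples lay far below all WT samples, with a difference of -3.43 (SE 0.14). In recovered reads the WT level was 10.7 times the mutant level (exact 95% interval 9.73 to 11.9, counting error only). Lynx1 reads remained well above the floor in both mutant samples, so part of its RNA remained.

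Gpr20, at chr15:73694604-73707505 on the minus strand and 1.04 Mb from Lynx1, was lower by a similar factor from a smaller starting level. WT samples had 189, 191 and 134 normalized counts and Elmo2 EID/EID samples 9.84 and 10.8, the latter from 11 and 12 reads. The groups lay far apart, with a difference of -3.91 (SE 0.24). In recovered reads the WT level was 16.9 times the mutant level, and with so few mutant reads the exact 95% interval is wide (11.1 to 26.9, counting error only).

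Ly6e, a broadly made family member that is induced by interferon and serves as the receptor for syncytin-A in the mouse placenta, was slightly lower. It lies 202005 bases beyond Lynx1, at chr15:74955051-74959905. It had 825, 655 and 757 normalized counts in WT samples and 518 and 601 in Elmo2 EID/EID samples, a difference of -0.41 (SE 0.12). The groups did not overlap, although the highest mutant and the lowest WT sample were close.

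**Figure D1:**
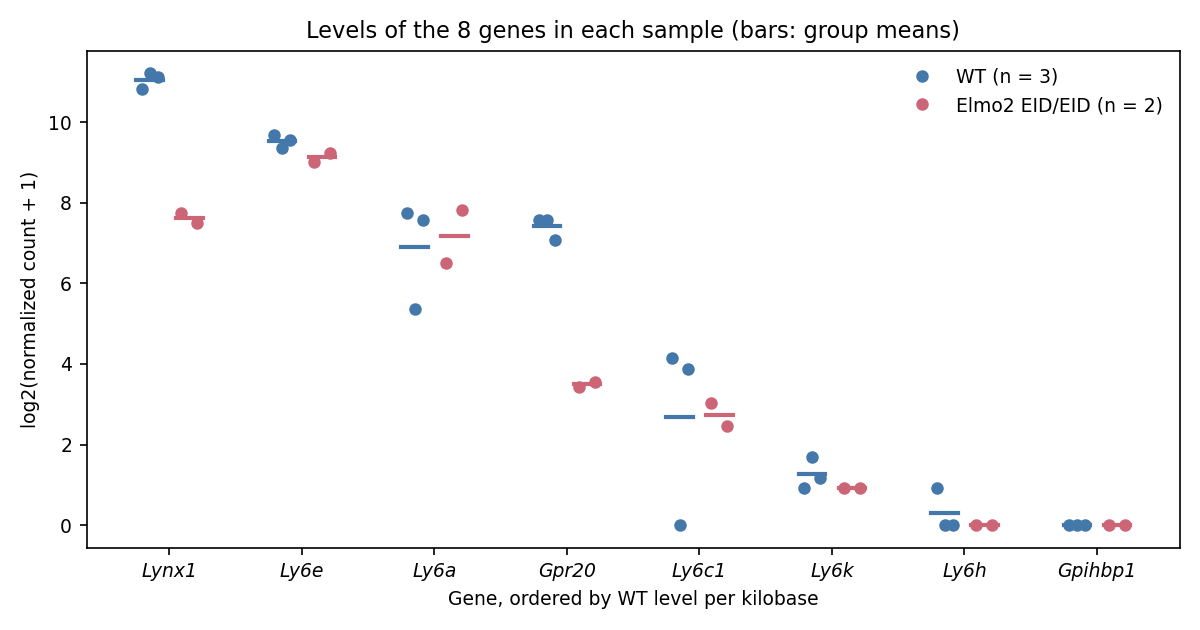
Normalized counts of the 8 genes in each sample, as log2(normalized count + 1), with the genes ordered by their WT level per kilobase of exon. Points are samples (blue, WT, n = 3, red, Elmo2 EID/EID, n = 2) and bars are group means, and the groups lie far apart in Lynx1 and Gpr20, narrowly apart in Ly6e, and overlap in Ly6a and Ly6c1.

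Ly6a, which encodes Sca-1, a surface protein of blood stem cells, endothelium and the fibro-adipogenic cells of muscle, varied within each genotype more than between them. It had 214, 40.4 and 190.2 normalized counts in WT samples and 90.3 and 225 in Elmo2 EID/EID samples, so the groups overlapped. The difference was 0.27 (SE 0.75), and its sign turned when WT replicate 2 was left out (-0.50) or Elmo2 EID/EID replicate 2 (-0.39).

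Ly6c1, known from endothelium and monocytes, was near the floor, with 16.8, 0 and 13.7 normalized counts in WT samples and 7.15 and 4.48 in Elmo2 EID/EID samples. The groups overlapped, with a difference of 0.07 (SE 1.23). Its sign turned in 6 of 14 alternatives, among them edgeR (-0.83), DESeq2 (-0.81), pseudocount 5 (-0.24) and leaving out WT replicate 2 (-1.27), and the mean of the normalized counts was lower in the mutant (5.82 against 10.2). Its level is uncertain for another reason, since 292 of the 795 stretches of 50 bases in its transcript (36.7%) also occur in another gene, 252 of them in Ly6c2. The coding sequences of Ly6c1 and Ly6c2 differ at 9 of 393 bases, and counts of uniquely placed reads miss those that match both.

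WT replicate 2, the lowest WT sample for both Ly6a and Ly6c1, was also lowest among WT samples in all 12 endothelial markers and in 4 of the 7 fibro-adipogenic markers tested, with 1 more tied at 0. The same sample was lowest in 5 of 7 pericyte and smooth muscle markers tested, 2 of 10 muscle markers and 1 of 5 macrophage markers. The share over all genes is not given, so these counts are description only. The 9 fibro-adipogenic markers (Pdgfra, Smoc2 and others) summed to 2007, 304 and 1244 normalized counts in WT samples and 1350 and 1617 in Elmo2 EID/EID samples, with Lum at or under 0.90 and Pi16 at or under 1.79 in each. All 7 tested were above 0 (median 0.79, the all-gene median being 0.01), and 0 passed with limma, edgeR or DESeq2 (2 at an unadjusted p under 0.05). The 12 endothelial markers (Pecam1, Cdh5 and others) summed to 1246, 403 and 1345 in WT samples and to 3180 and 4643 in Elmo2 EID/EID samples, and none was at 0 in every sample. Endothelial sums did not overlap between genotypes, while Ly6a and Ly6c1 did. Of the 12, 11 were higher in the mutant (median 2.10), yet with limma 0 passed (9 at an unadjusted p under 0.05), against 1 with edgeR (2.25% of all tested genes) and 5 with DESeq2 (5.55%). In bulk samples like these, fewer cells of a type and less RNA per cell cannot be told apart, and the part of such cells in the Ly6a and Ly6c1 values was not tested.

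**Figure D2:**
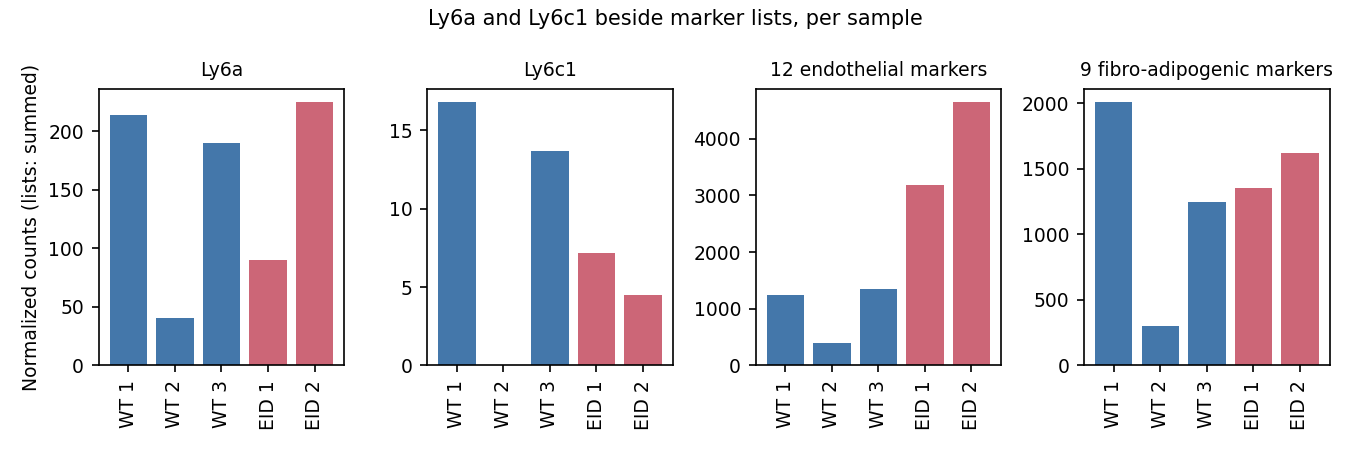
Normalized counts of Ly6a and Ly6c1 in each sample, beside the summed normalized counts of 12 endothelial and 9 fibro-adipogenic markers (blue, WT, red, Elmo2 EID/EID, each panel with its own axis from 0). WT replicate 2 is the lowest WT bar in all 4 panels, and the mutant bars stand above the WT bars only in the endothelial panel.

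The remaining 3 genes were not expressed at a level that could be compared. Ly6k, best known from testis and sperm, had between 0.88 and 2.24 normalized counts in every sample, 1 or 2 reads each. Ly6h, a brain gene whose product also binds nicotinic receptors, had 1 read in WT replicate 1 and 0 in the other samples. Gpihbp1, which carries lipoprotein lipase across capillary endothelium, had 0 reads in all 5 samples, which allows up to 3.73 normalized counts by the floor. A difference in these genes was not detectable at this depth. Thus 5 of the 8 genes reached the level for testing.

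Of those 5, 3 did not overlap between genotypes, against 32.6% of all tested genes, and 2, Lynx1 and Gpr20, are among the 2.23% of all tested genes that passed with limma. Both were selected on this same difference, so these counts account for the members and nothing is read from them.

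Per kilobase of annotated exon, the order of the genes differed between the genotypes. In WT samples Lynx1 stood first with a mean of 456 normalized counts per kilobase, before Ly6e (197), Ly6a (123), Gpr20 (79.9) and Ly6c1 (6.05). Lynx1 was apart from Ly6e in every WT sample, whereas the ranges of Ly6e and Ly6a overlapped, as did those of Ly6a and Gpr20. In Elmo2 EID/EID samples Ly6e (148) and Ly6a (131) came first with overlapping ranges, then Lynx1 (41.9), Gpr20 (4.80) and Ly6c1 (3.47). Gpr20 and Ly6c1 were both close to the floor there, although their ranges did not meet. The length used was that of all annotated exons joined, 1677 bases in Ly6c1, against 844 in its principal transcript. For Gpr20 it was 2144 by either measure, so the order of Gpr20 and Ly6c1 depends on the length chosen. So does the WT overlap of Ly6e (3784 or 2281 bases) and Ly6a (1205 or 819).

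Among the other 30 tested protein-coding genes of the window, 3 passed the test with limma (2.23% of all tested genes), 3 with edgeR (2.25%) and 3 with DESeq2 (5.55%). Only 1 of these 3, Ptp4a3, shared the direction of Lynx1 and Gpr20. The other 2, Psca and Jrk, were higher in Elmo2 EID/EID samples. Psca reached the level for testing only through the mutant samples. The count of 3 is therefore not independent of the difference, and nothing is read from it against these shares.

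Ptp4a3, a phosphatase of the PRL group attached to membranes by a prenyl tail, starts 15640 bases from the end of Gpr20, at chr15:73723145-73758766 on the plus strand. It had 2027, 2273 and 2292 normalized counts in WT samples and 1105 and 836 in Elmo2 EID/EID samples. All mutant values lay below the WT values, and the gene fell by 1.19 on the log2 scale (SE 0.13, adjusted p = 0.0072, limma with Benjamini-Hochberg adjustment). The call was lost without Elmo2 EID/EID replicate 2 (-0.99, adjusted p = 0.057) and in limma without the trend (-1.19, adjusted p = 0.077).

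Psca, the prostate stem cell antigen, is the family member nearest to Lynx1 among the tested genes, ending 30783 bases before it at chr15:74714839-74717069 on the plus strand. It was almost silent in WT samples, with 0, 2.24 and 1.24 normalized counts, and had 82.3 and 81.6 in Elmo2 EID/EID samples. In reads this is 3 over all WT samples against 183 over both mutant samples, a ratio of 77.2 with an exact 95% interval of 26.0 to 378 (counting error only). Psca rose by 5.42 on the log2 scale (SE 0.56, adjusted p = 0.0067, limma with Benjamini-Hochberg adjustment). With so few WT reads that size depends on the method, from 3.83 with pseudocount 5 to 6.26 with DESeq2. It reached the level for testing only through the mutant samples, where it was high, so its place among the tested genes is not independent of the difference. With all 27369 genes above 0 tested and no such filter, the adjusted p was 0.036 (limma). The call was lost without Elmo2 EID/EID replicate 1 (adjusted p = 0.095) or replicate 2 (adjusted p = 0.115), with almost the same difference. Per kilobase of exon the mutant mean of Psca was 95.3 normalized counts, above that of Lynx1 in the same samples, against 1.35 in WT.

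Jrk, a nuclear protein derived from a transposase, ends 5304 bases before Psca at chr15:74702301-74709535 on the minus strand. It had 307, 303 and 312 normalized counts in WT samples and 501 and 488 in Elmo2 EID/EID samples, with narrow and separate groups. It rose by 0.68 on the log2 scale (SE 0.09, adjusted p = 0.019, limma with Benjamini-Hochberg adjustment). That call was lost when WT replicate 1 (adjusted p = 0.092), WT replicate 2 (0.061), Elmo2 EID/EID replicate 1 (0.127) or Elmo2 EID/EID replicate 2 (0.146) was left out, with the replicate number as a block (0.099) and in limma without the trend (0.052).

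All 3 lie in the stretch between Gpr20 and Lynx1, a division made after the values were seen. Its 4 other tested genes did not pass. Adgrb1, which encodes the phosphatidylserine receptor BAI1 that signals through ELMO proteins, was near the floor at 1.12 to 7.15 normalized counts (0.88, SE 0.66, adjusted p = 0.596, limma). Them6, between Psca and Lynx1, had 118, 155 and 118 normalized counts in WT samples and 102 and 124 in Elmo2 EID/EID samples (-0.20, SE 0.19, adjusted p = 0.698, limma). Arc, an immediate early gene, did not overlap between groups, from 474 to 709 in WT and at 317 and 456 in Elmo2 EID/EID samples (-0.53, SE 0.22, adjusted p = 0.326, limma). Mroh4 had 6.22 to 15.2 normalized counts over all samples (0.28, SE 0.48).

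Outside that stretch 0 of 23 genes passed with limma, edgeR or DESeq2, and 0 had an unadjusted p under 0.05 with limma. Their median difference was -0.02, within a range from -0.46 to 0.86. On the far side of Gpr20 the 2 nearest tested genes were Slc45a4, a sugar transporter family gene (-0.28, SE 0.12, adjusted p = 0.348, limma), and Dennd3, a regulator of Rab proteins (0.58, SE 0.32, adjusted p = 0.454, limma). On the far side of Lynx1 they were the members Ly6e and Ly6a, and the other 17 tested genes there ran from -0.46 to 0.86. Over all 30 other genes, 11 did not overlap between genotypes, 6 of them lower, against the 32.6% of all tested genes. Psca, tested only through its mutant level, is among the 11. The 5 tested non-coding genes of the window also did not pass with limma, edgeR or DESeq2, and 0 had an unadjusted p under 0.05.

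**Figure D3:**
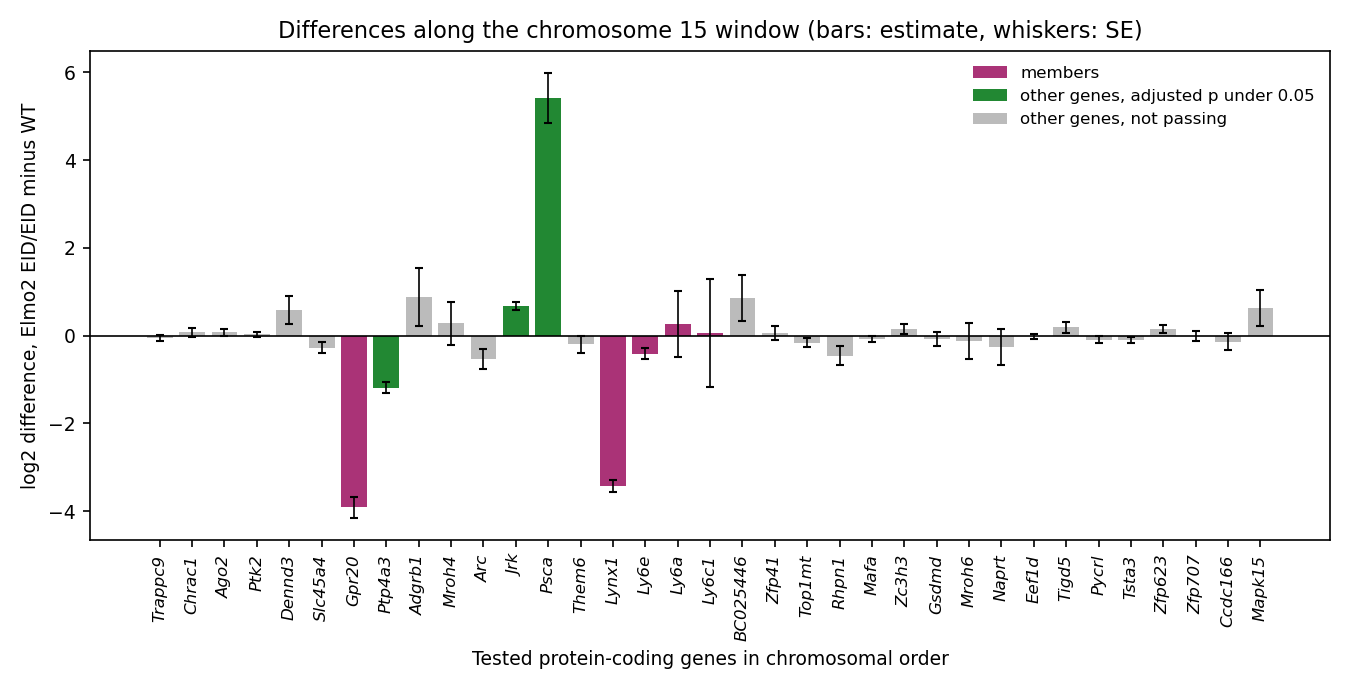
Differences of the 35 tested protein-coding genes of the window in chromosomal order, as Elmo2 EID/EID minus WT on the log2(normalized count + 1) scale, with bars for estimates and whiskers for SE. Members (purple) at -3.91 (Gpr20) and -3.43 (Lynx1) flank the 3 other genes that passed (green, Ptp4a3, Jrk and Psca), and the grey genes, which did not pass, lie between -0.53 and 0.88.

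Genes that passed were found over a wide part of chromosome 15, so the window was compared with the rest of the chromosome. Among the tested protein-coding genes of chromosome 15, 30 of 572 passed (5.24%), the highest share among 20 chromosomes, ahead of chromosome 14 (4.49%), against 2.04% of all protein-coding genes (293 of 14339). Lynx1 and Gpr20, selected on this difference, are among the 30, and without the tested members 28 of 567 passed (4.94%). The bin from 70 to 80 Mb, which holds the locus, had 9 of 141 (6.38%), or 7 of 136 (5.15%) without the members, and the bin from 30 to 40 Mb had 10 of 43 (23.3%). Counts without the members, for the chromosome and for the bin of the locus, still include Psca, which was tested only through its mutant level. The last of the 30 is Cacna1i (-3.89), named after its value was seen, which starts 5.54 Mb beyond the start of Lynx1. Its end at base 80398279 is a boundary set by the calls themselves. By construction limma therefore has 0 calls among the 251 genes beyond it (32 had an unadjusted p under 0.05). There edgeR also called 0 (2.25% of all tested genes) and DESeq2 called 7 (5.55% of all tested genes). The nearest passing genes outside the window, named after their values were seen, were Col22a1 (1.74), 1.66 Mb from Gpr20, and Ift27 (-0.58), 3.41 Mb from Lynx1.

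**Figure D4:**
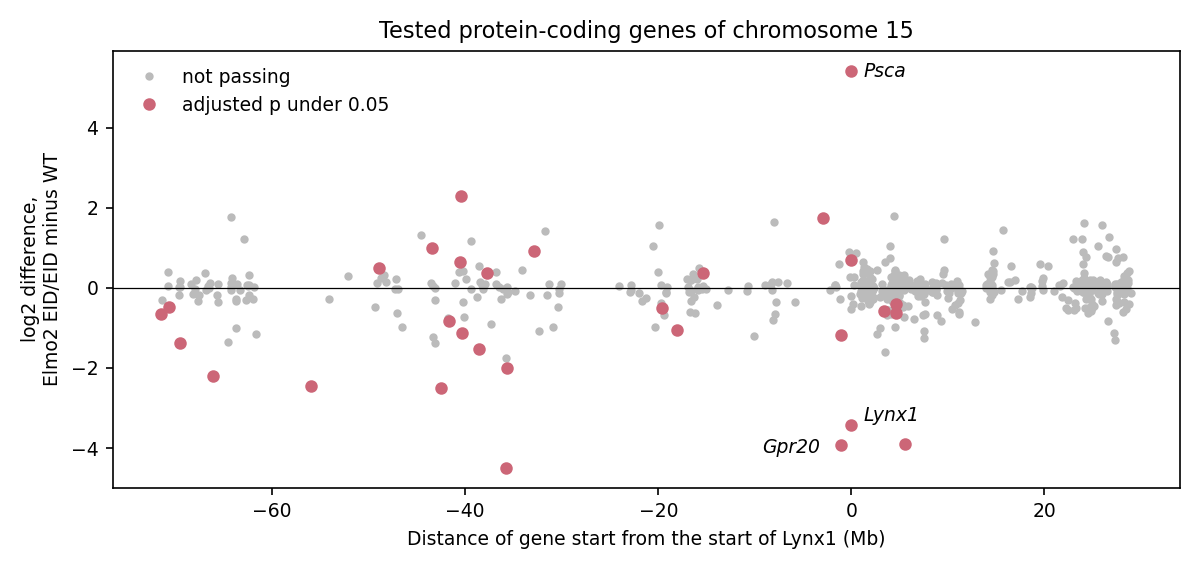
Differences of the 572 tested protein-coding genes of chromosome 15 (Elmo2 EID/EID minus WT, log2 scale) against the distance of each gene's start from that of Lynx1 in Mb. Red points have an adjusted p under 0.05 (30 genes) and grey points do not, and the last red point on the right is the gene that ends at base 80398279.

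Across the family as a whole the locus was mostly silent. Of 21 Ly6/uPAR genes of the chromosome 15 cluster, 8 had no read in any sample and 6 were tested: Lynx1, Ly6e, Ly6a, Ly6c1, Psca and Ly6g2 (listed as BC025446). Ly6g2 had 39.3 to 61.0 normalized counts in WT samples and 44.7 and 168 in Elmo2 EID/EID samples, with overlapping groups (0.86, SE 0.53, adjusted p = 0.509, limma). Slurp2, the gene next to Lynx1, had 1 read in each WT sample and 0 in the mutant samples, under the floor. The 6 include Lynx1, selected on this difference, and Psca, tested only because of its mutant level, so no count or median is drawn from them. Of 20 family genes on other chromosomes 6 were tested, 4 of them below 0. They were Pinlyp (-1.35, SE 0.75), Lypd6 (-1.05, SE 0.37), the complement regulators Cd59b (-0.75, SE 0.32) and Cd59a (0.57, SE 0.31), the urokinase receptor gene Plaur (-0.10, SE 0.15) and Ly6g5b (0.57, SE 0.73). The groups did not overlap in 2 of the 6, Lypd6 and Cd59b, against 32.6% of all tested genes. Of these 6, 0 passed with limma, edgeR or DESeq2, 1 (Lypd6) had an unadjusted p under 0.05, and the median was -0.42.

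The receptors that Lynx1 is known to modulate were followed as a pathway list. Of 16 nicotinic acetylcholine receptor subunits 7 were tested, and 0 passed with limma, edgeR or DESeq2 or had an unadjusted p under 0.05, with a median of 0.05 and a range from -0.08 to 1.14. The upper end is Chrna7 (SE 1.00), a subunit best known from neurons, which had at most 11.7 normalized counts, and Chrnb2 was at 0.20 (SE 0.20). Chrna1, the muscle alpha subunit, had 121582, 127609 and 134555 normalized counts in WT samples and 125166 and 122981 in Elmo2 EID/EID samples, with overlapping groups. Its difference was -0.04 (SE 0.08), beside 0.14 (SE 0.11) for Chrnb1, -0.02 (SE 0.06) for Chrnd and -0.08 (SE 0.08) for Chrng, the fetal subunit. Chrne, the adult subunit, was lower in level and more variable, with 453 to 822 normalized counts over all samples (0.05, SE 0.26).

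**Figure D5:**
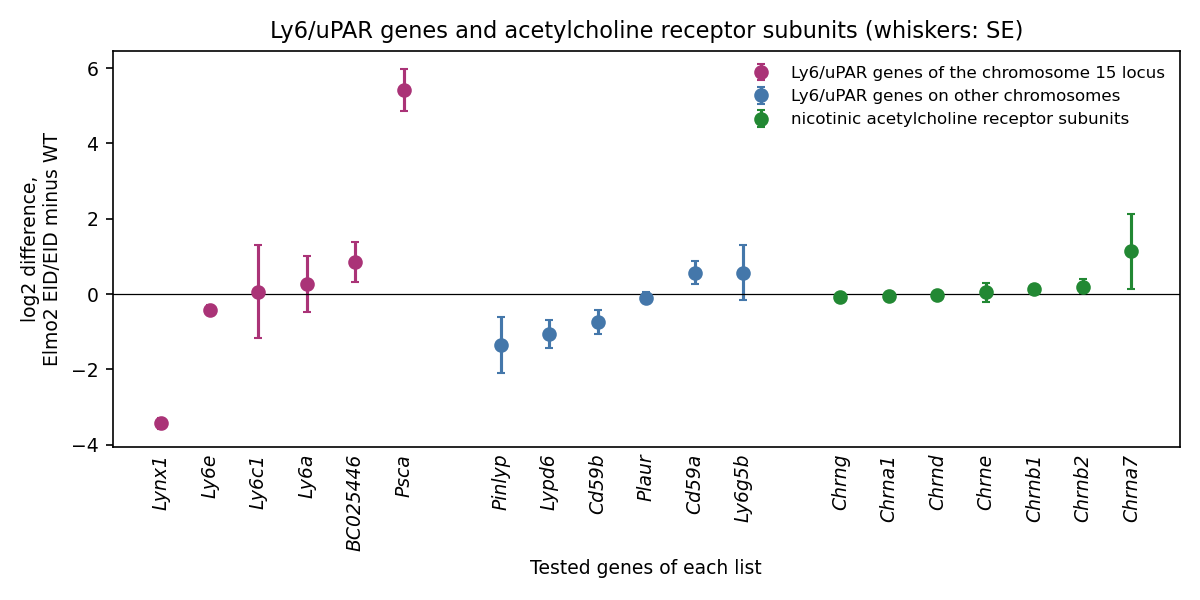
Differences (Elmo2 EID/EID minus WT, log2 scale, whiskers for SE) of the tested Ly6/uPAR genes of the chromosome 15 locus (purple, 6), of other chromosomes (blue, 6) and of nicotinic acetylcholine receptor subunits (green, 7). Lynx1 (-3.43) and Psca (5.42) stand at opposite ends, and the muscle receptor subunits lie between -0.08 and 0.14.

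Other pathways of the members were read in the same way. For Gpihbp1, 7 of 13 genes of lipoprotein lipase handling were tested and 1 passed, against 2.23% of all tested genes. Lpl, the lipase itself, had 2863, 2611 and 2722 normalized counts in WT samples and 4229 and 3790 in Elmo2 EID/EID samples. The groups were separate, and Lpl rose by 0.55 on the log2 scale (SE 0.08, adjusted p = 0.0200, limma with Benjamini-Hochberg adjustment). That call held in 8 of 15 alternatives. It was lost in limma without the trend (adjusted p = 0.129), without a filter on low values (0.070), with the replicate block (0.055) and when any sample but WT replicate 3 was left out (0.060 to 0.127). The list median was 0.37, with 6 of 7 above 0. For Ly6e, 21 of 25 interferon-induced genes were tested, and 0 passed with limma, edgeR or DESeq2 (2 at an unadjusted p under 0.05). Their median was -0.05, with 9 above and 12 below 0.

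Markers of other cells were read beside Lynx1 and Gpr20. The lists here and above were written with earlier results of these data known, so their counts of passing genes are given as description only. Of 8 pericyte and smooth muscle markers 7 were tested, 3 above and 4 below 0 with a median of -0.16, and 2 passed, both lower (1.14% of all tested genes passed in that direction). Rgs5, a G protein regulator of pericytes, had 125, 65.1 and 90.7 normalized counts in WT samples and 9.84 and 11.7 in Elmo2 EID/EID samples (-2.97, SE 0.32, adjusted p = 0.0076, limma). The Rgs5 call was lost in limma without the trend (adjusted p = 0.052) and without Elmo2 EID/EID replicate 1 (0.093) or replicate 2 (0.097). Notch3, a receptor of mural and satellite cells, was at -1.55 (SE 0.23, adjusted p = 0.028, limma), whereas Cspg4 (0.39), Pdgfrb (-0.30) and Myh11 (1.42) did not pass. The Notch3 call was lost without the trend (adjusted p = 0.148), without a filter on low values (0.119) and without WT replicate 1 (0.112), 2 (0.079) or 3 (0.063). The 8 markers summed to 12349 to 14246 normalized counts in WT samples and to 11408 and 11761 in Elmo2 EID/EID samples, Kcnj8 was at or under 1.12 in each, and their part in the Lynx1 and Gpr20 values was not tested. Of 10 muscle markers 1 passed, against 2.23% of all tested genes. It was Pax7 of satellite cells, at 837 to 942 normalized counts in WT and 298 and 414 in Elmo2 EID/EID samples (-1.35, SE 0.15, adjusted p = 0.0076, limma), and their median was -0.02. The Pax7 call was lost without the trend (adjusted p = 0.076) and without Elmo2 EID/EID replicate 2 (0.054). Of 5 macrophage markers tested 0 passed with limma, edgeR or DESeq2 (1 at an unadjusted p under 0.05), with Ptprc at or under 2.68 and a list sum of 81.3 to 97.6 normalized counts in WT samples and of 217 and 79.8 in Elmo2 EID/EID samples.

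Genes patterned most like Lynx1 and Gpr20 over the 5 samples were sought among the 11223 genes averaging 100 or more normalized counts, by the root-mean-square distance between centred log2 values. The 3 nearest to Lynx1 were Ndufs5 of chromosome 4 (0.14), Rab6b of chromosome 9 (0.32) and Gpr20 (0.36). The 3 nearest to Gpr20 were Ndufs5 (0.34), Lynx1 (0.36) and Dpp6 of chromosome 5 (0.49). Ndufs5, a subunit gene of mitochondrial complex I, had 1353, 1307 and 1413 normalized counts in WT samples and 138 and 114 in Elmo2 EID/EID samples. The distance is dominated by the gap between genotypes for which Lynx1 and Gpr20 were selected, so their closeness to each other and to genes with a like gap follows from that choice.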

How the data were processed

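The authors aligned untrimmed pairs of 50-base reads to GRCm38 (STAR 2.5.1b), assigned unique reads to genes by strand (featureCounts 1.4.6) and deposited signal values, in which each count was scaled by its sample's DESeq2 (1.34.0) size factor. FastQC 0.11.5 is also named in the submitters' processing notes. Reads were recovered as whole multiples of each sample's smallest value (100.0% whole within 0.01 read). GENCODE M21 matched 54165 identifiers. Symbols Ly6m and Ly6g2 were matched through RefSeq.

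Log2(normalized count + 1) was fitted with limma 3.58.1 (trend, two-sided, no block) in R 4.3.3, after a test on simulated data. Alternatives were edgeR 4.0.16 and DESeq2 1.42.0 on recovered reads, pseudocounts 0.5 and 5, other filters and scalings, no trend, the replicate block and leaving out samples. Intervals used scipy 1.17.1 and cover counting error only. Replicates differed beyond sampling noise (chi-square per degree of freedom 24.2 to 34.4). Samples were grouped by title.

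Named were the 8 members, passing genes of the window, the 2 nearest tested genes on each side of Lynx1 and Gpr20, the 3 most like each, passing list genes, muscle receptor subunits and Lpl. Other names were chosen after their values were seen. Members and lists were chosen with earlier results of these data known.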

Additional observations from a re-analysis of the deposited data

How the results depend on the processing

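With 3 against 2 samples, calls rested on few replicates. The count of 3 passing genes around the members (1 lower, 2 higher) became 1 (0 lower, 1 higher) in limma without the trend. With the replicate block it was 2, of which 1 higher. Without one sample at a time it ran from 0 to 3 (0 to 1 lower, 0 to 2 higher), at 1 without Elmo2 EID/EID replicate 1 and 0 without replicate 2. Over all gene lists 6 of 87 tested genes passed (2.23% of all genes did), namely Lynx1, Psca, Lpl, Rgs5, Notch3 and Pax7. Lynx1 was selected on this difference, and Psca was tested only through its mutant level. The lists were also written with earlier results known, so nothing is read from this count against that share. The count was 2 without the trend, 11 with DESeq2 and 7 with the block, and 2 to 8 without one sample. The numbers do not pair the samples: the replicate 1 minus 2 differences of the genotypes correlated at -0.31 over 11223 genes, and WT replicate 3 has no partner. Genome-wide, 404 genes passed, against 961 with DESeq2, 144 without the trend, 155 without a filter on low values, 224 with the block and 54 to 349 without one sample. Over the 15 alternatives, Lynx1 ranged from -3.56 to -3.31, Gpr20 from -4.08 to -3.51 (the latter with pseudocount 5), Ly6e from -0.52 to -0.31, Ly6a from -0.50 to 0.92 and Ly6c1 (14 of them) from -1.27 to 0.80. Psca, Ptp4a3 and Pax7 each passed in 13 of them, Rgs5 in 12, Notch3 in 10, Jrk in 9 and Lpl in 8. Depth limits Gpr20 in the mutant samples, Ly6c1, Ly6k, Ly6h and Gpihbp1.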
